A study of Mus musculus with 16 samples.

Results

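The nuclear genes for the subunits of the respiratory chain and of ATP synthase were examined in gastrocnemius, a muscle of the calf, of mice fed rosiglitazone with or without n-3 LC-PUFA. Included were all probes on the array whose gene name has the prefix of a complex I (Nduf), II (Sdh), III (Uqcr), IV (Cox4 to Cox8) or V (Atp5) subunit, which gave 111 probes of 81 genes, of 27745 gene names on the array. Of these, 79 genes passed the filter on weak signals and 2 did not. Counts by complex follow the gene names. They include Ndufa12l (I), Cox4nb (IV) and Atp5s (V), which are no subunits, and Ndufa4 is counted with complex I. Both groups were male C57BL/6N mice, 3 months old at the start, fed for 8 weeks a high-fat diet (cHF, 35% fat by weight) that held rosiglitazone (10 mg/kg diet), a drug that activates PPARγ. In the cHF+F+ROSI group, a concentrate of n-3 LC-PUFA (46% DHA, 14% EPA) took the place of 15% of the dietary lipids, and in the cHF+ROSI group it was absent. All 16 mice were fasted for 10 h and re-fed Chow diet during the following night before they were killed, and every mouse had received rosiglitazone, so the effect of the drug itself was not analysed here. Each of the 8 mice of a group had 1 two-color array, in which its RNA (Cy5) was measured against a common pool (Cy3) of equal amounts of RNA from all diets, and values are log2(Cy5/Cy3). A difference is the mean of cHF+F+ROSI minus that of cHF+ROSI on this log2 scale.

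As background, complexes I and II pass electrons from NADH and succinate to ubiquinone, complex III passes them on to cytochrome c, and complex IV (cytochrome c oxidase) hands them to oxygen. Complexes I, III and IV pump protons across the inner mitochondrial membrane, and complex V (ATP synthase) uses the return of protons to make ATP. Most subunits are encoded in the nucleus and a few in the mitochondrial genome. Several complex IV subunits have a form typical of heart and skeletal muscle (Cox6a2, Cox7a1, Cox8b) beside a more widely expressed one (Cox6a1, Cox7a2, Cox8a). Muscle fibres of the slow, oxidative type are rich in these complexes.

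RefSeq (GRCm38.p6) held promoters of 65 of the 79 measured member genes, as windows of 300 bases, of which 250 lay before the start of the gene. They were searched on both strands for the letters of 4 sites of factors known for respiratory genes. A gene with several windows was counted once, if any of them matched. The core of the NRF1 site, CGCATGCG, was found for 9 of 65 member genes (13.8%). It was found for 2.07% of all 27025 genes with a promoter and 4.13% of 8565 genes whose probes were tested. The YY1 letters AAGATGGCG were in 7 (10.8%, against 1.64% and 3.6%). The ETS/GABP letters CCGGAAGT were in 5 (7.69%, against 4.31% and 9.15%), and the ERR alpha letters TCAAGGTCA in 2 (3.08%, against 0.466% and 0.35%). At least 1 of the 4 was found for 21 member genes (32.3%), against 16.2% of the tested genes and 8.03% of all. None of the 4 strings contains another, and CGCATGCG reads the same on both strands. The 250 bases before the start are shown for 3 genes, Cox8b and Atp5j because they lay at the upper and the lower end of the member differences, and Cox6a1 as the widely expressed form of a complex IV subunit. Capitals mark a match.
Cox8b (chr7:140900447-140900696, minus strand): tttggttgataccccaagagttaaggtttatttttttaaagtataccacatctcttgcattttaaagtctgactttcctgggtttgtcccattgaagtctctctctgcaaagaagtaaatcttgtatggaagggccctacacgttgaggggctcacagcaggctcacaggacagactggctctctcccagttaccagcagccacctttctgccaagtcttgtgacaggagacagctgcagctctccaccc
Cox6a1 (chr5:115348959-115349208, minus strand): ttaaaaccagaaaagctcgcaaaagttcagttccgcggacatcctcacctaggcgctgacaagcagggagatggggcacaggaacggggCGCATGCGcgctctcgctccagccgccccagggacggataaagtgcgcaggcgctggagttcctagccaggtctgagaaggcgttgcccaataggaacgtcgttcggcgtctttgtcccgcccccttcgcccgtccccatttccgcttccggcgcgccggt
Atp5j (chr16:84834977-84835226, minus strand): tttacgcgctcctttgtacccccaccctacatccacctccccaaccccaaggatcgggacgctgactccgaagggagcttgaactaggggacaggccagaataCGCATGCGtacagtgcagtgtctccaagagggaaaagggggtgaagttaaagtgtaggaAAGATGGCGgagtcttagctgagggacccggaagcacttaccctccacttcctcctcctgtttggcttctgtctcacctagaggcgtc
The Cox6a1 sequence has the NRF1 letters, starting at position -161 from the gene start. The Atp5j sequence has the NRF1 letters at -147 and the YY1 letters at -88. A further Atp5j window had no match and is not shown. In the Cox8b sequence none of the 4 strings was found, which says only that these letters are not in this window.

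Before the comparison, 2 arrays stood apart. That of cHF+ROSI replicate 1 was dim, with a median Cy5 signal over background of 2.33 against 2.98 to 3.64 on the other arrays. Over the 79 member genes, its log2 ratios correlated with those of any other array at no more than 0.56, whereas each of the other 15 arrays reached at least 0.93 with another one. The mouse of cHF+F+ROSI replicate 2 had a mean log2 ratio of -2.09 over 11 slow fibre genes (such as Myh7, Tnni1 and Tnnc1), where the next lowest of its group was -0.65 and the lowest of the cHF+ROSI group -1.33. All 6 general muscle fibre markers (Ckm, Acta1, Mylpf, Tnnt3, Myh4, Des) passed the filter. In bulk tissue, fewer cells or fibres of a type and less RNA per cell cannot be told apart. The arrays lay on 4 slides with 2 mice of each group per slide. On every slide the groups had fixed positions, so position and diet cannot be told apart. Counts are also given without each of the 2 arrays.

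No member gene differed between cHF+F+ROSI and cHF+ROSI at an adjusted p of 0.05 in limma (Benjamini-Hochberg adjustment over 19398 probes), and the lowest adjusted p of a member was 0.319. Over all probes, 3 passed (0.0155%). The median difference of the 79 member genes was 0.01 and their range -0.17 to 0.24, against a median of -0.00 over all probes tested. The member differences were spread about as widely as those of all probes, with an interquartile range of 0.11 in both. Of the member genes, 44 were above zero (55.7%, against 49.2% of all probes) and 35 below. None reached a fold change of 1.2 (0.26 on the log2 scale) in either direction. At a nominal (unadjusted) p of at most 0.05 in the same limma fit, 4 member genes (5.06%) were higher in cHF+F+ROSI, against 3.5% of all probes, and 1 (1.27%) was lower, against 3.96%. The methods' t-test gave the same total of 5. With the added limit of a fold change of 1.2, 1.49% of all probes remained and no member did. With 79 genes, 1 gene makes 1.27%, so the shares of members lay within a few genes of those of all probes.

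The 95% intervals from limma reflect the variation between the 16 arrays under a single way of processing, not the shifts under other settings. Cox6a2, with an interval of 0.04 to 0.44, reached -0.14 under another setting. For 61 of 79 member genes the 95% interval of the difference lay wholly inside a fold change of 1.2 in both directions (77.2%, against 70.2% of all probes). The half-width of the interval had a median of 0.14 and reached 0.36 for Atp5g3, one of the genes of the membrane ring subunit c of ATP synthase. By complex, the intervals lay inside that limit for 31 of 36 genes of complex I, 2 of 4 of complex II, 6 of 7 of complex III, 10 of 16 of complex IV and 12 of 16 of complex V. These intervals are for single genes, without adjustment over all probes, so they are no limit of detection at the adjusted threshold. Cox8b, for example, differed by 0.24 (interval 0.10 to 0.38) with an adjusted p of 0.319 in limma.

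**Figure D1:**
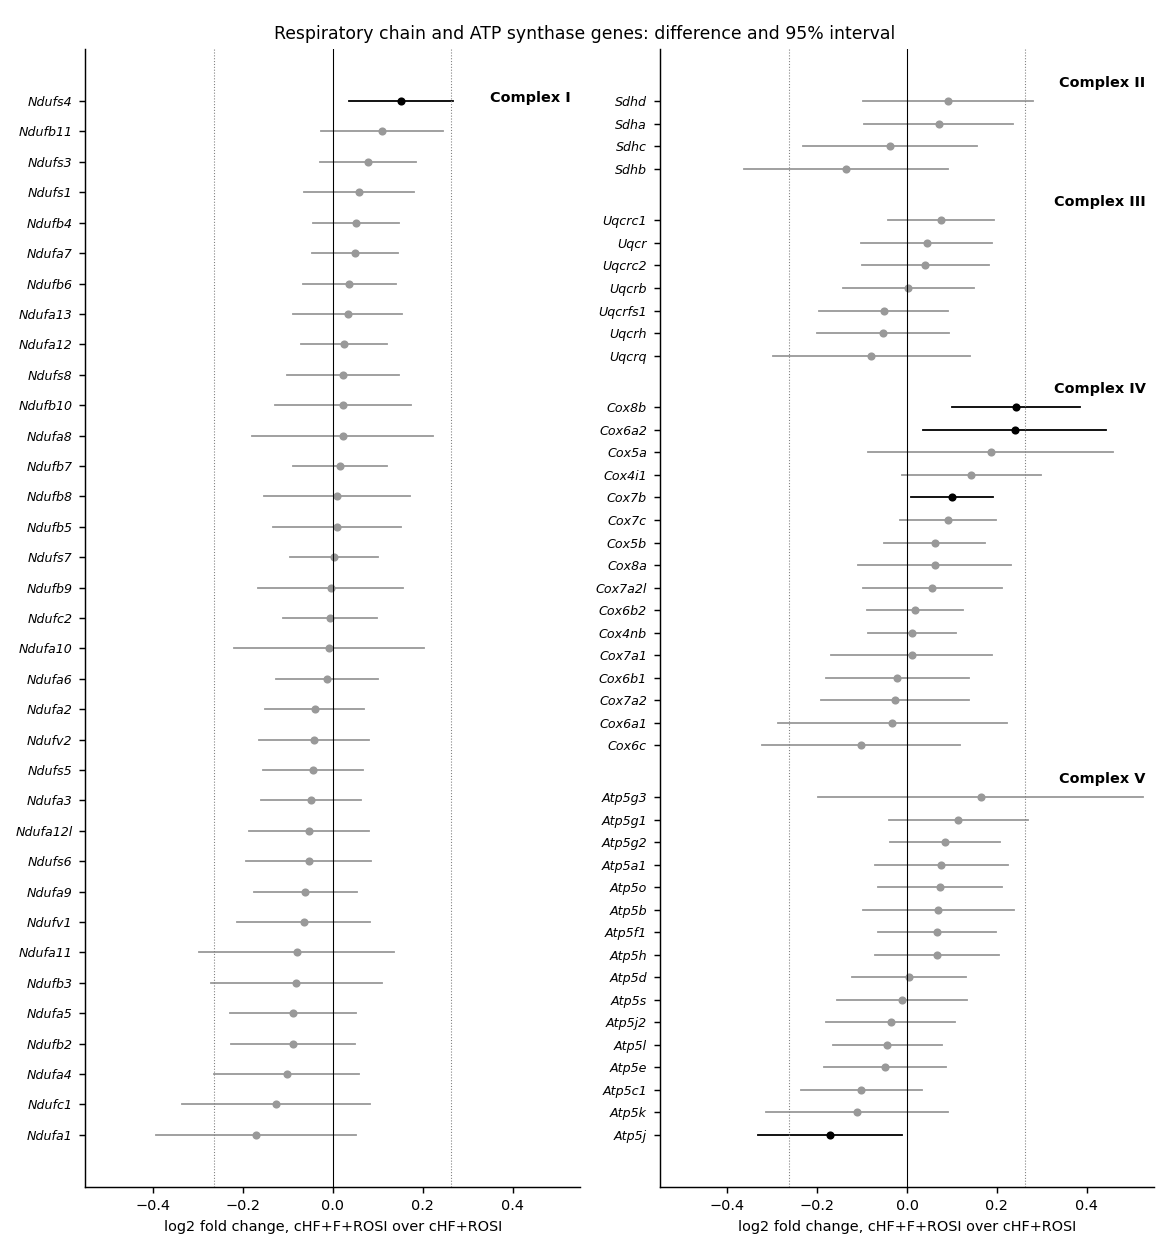
Difference of 78 of the 79 measured member genes (log2 fold change, cHF+F+ROSI over cHF+ROSI; point) with its 95% interval from limma (line), ordered within each complex; black marks a nominal p of at most 0.05 and dotted lines a fold change of 1.2. All points lie between -0.17 and 0.24, with 5 genes in black, 3 of them in complex IV.

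Summed by complex, the groups overlapped in every one. The mean log2 ratio over all member genes ranged from -0.15 to 0.11 over mice fed cHF+F+ROSI (median 0.01) and from -0.13 to 0.09 over those fed cHF+ROSI (median 0.00). For complex IV it ranged from 0.10 to 0.27 in cHF+F+ROSI and from 0.04 to 0.24 in cHF+ROSI, with means of 0.19 ± 0.07 and 0.13 ± 0.08 (SD, n = 8 each). The median difference of the genes was -0.01 in complex I, 0.02 in complex II, 0.00 in complex III, 0.06 in complex IV and 0.04 in complex V. The medians of complexes II, III and V took other values (0.19, -0.12 and -0.09) when the arrays were scaled to equal spread. That of complex IV was not fixed either. Over 15 alternative settings it ranged from -0.01 to 0.13, and with each array left out in turn from 0.03 to 0.08. The members of a mouse, which all share its array, often lay high or low together. The mean correlation between pairs of members was 0.36 over the 8 cHF+F+ROSI mice and 0.33 over the 8 cHF+ROSI mice. Without the dim array, the cHF+ROSI value was 0.48. In the cHF+F+ROSI mouse with the low slow fibre genes, 41 of 79 member genes had the lowest value of the group, and its mean was the lowest in complexes I, II, III and V but not in complex IV. In the cHF+ROSI group, replicate 4 was lowest for 30 member genes, and the dim array was the highest for 36 and the lowest for 16. Without the mouse low in slow fibre genes, the median difference of the members was 0.03. At a nominal p of at most 0.05, 6 genes were then higher and 0 lower, against 3.51% and 3.64% of all probes. Without the dim array the median was 0.02, with 4 higher and 0 lower, against 3% and 3.4% of all probes.

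**Figure D2:**
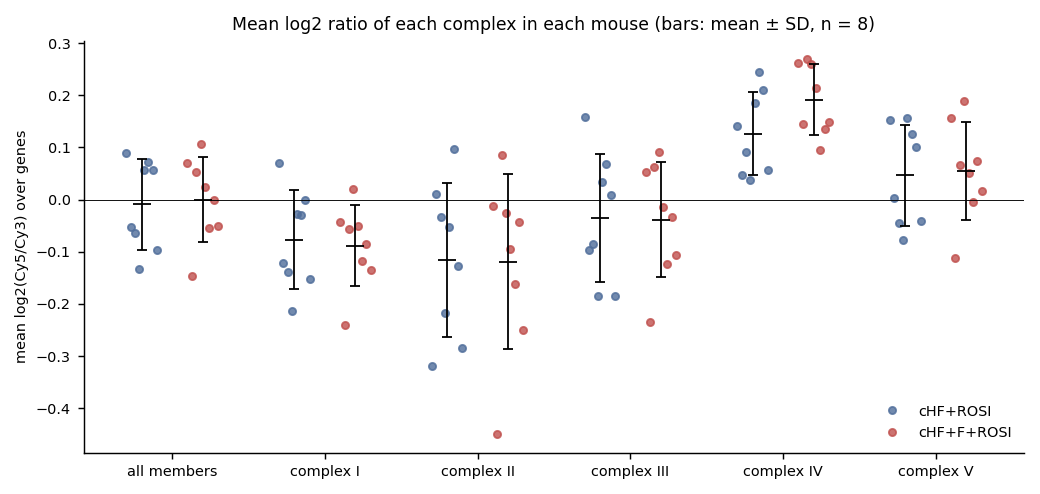
Mean log2(Cy5/Cy3) over the genes of each complex (vertical axis) in each mouse (points; cHF+ROSI blue, cHF+F+ROSI red), with mean ± SD (n = 8 per group). The groups overlap in each complex, and the lowest red point in complexes I, II, III and V is the mouse that was also lowest in slow fibre genes.

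Complex I, the NADH dehydrogenase, had 36 measured genes, with differences from -0.17 to 0.15. Ndufs4, an accessory subunit needed for a stable complex, had the smallest unadjusted p of this complex. Its log2 ratio ranged from -0.10 to 0.24 in cHF+F+ROSI (median 0.08) and from -0.20 to 0.07 in cHF+ROSI (median -0.05). The cHF+F+ROSI mice were above the cHF+ROSI mean in 7 of 8 cases, and the groups overlapped. The difference was 0.15 (SE 0.06), with an adjusted p of 0.544 in limma (0.0132 unadjusted) and an exact two-sided permutation p of 0.0127. On 2 of the 4 slides (2 and 4) it was 0.37 and 0.19, and on the others (1 and 3) 0.02 and 0.04. The nominal p of Ndufs4 rose above 0.05 in 3 of 16 alternatives other than leaving out 1 array. The differences there were 0.12 (Feature Extraction processed signals), 0.12 (median centring) and 0.07 (scale normalization). Its probe lies on chromosome 13 (115409650 to 115409709, mm8, the build of the array files).

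The core subunits of complex I named here showed small differences. Ndufv1, which binds the flavin that takes electrons from NADH, differed by -0.06 (SE 0.07), Ndufs1, an iron-sulphur subunit, by 0.06 (SE 0.06) and Ndufs8 by 0.02 (SE 0.06), all with an adjusted p of at least 0.867 in limma. Ndufb11, an accessory subunit of the membrane arm, was next in order of p with 0.11 (95% interval -0.03 to 0.24). Ndufa1, also of the membrane arm, had the lowest difference of the complex, -0.17 (interval -0.39 to 0.05). All 8 cHF+F+ROSI values of Ndufa1, from -0.75 to -0.44, were below the cHF+ROSI mean of -0.40, but that mean held the dim array at 0.33, while the other 7 cHF+ROSI mice lay between -0.59 and -0.40. Without that array Ndufa1 differed by -0.07. Ndufa4, once listed with complex I and later assigned to complex IV, differed by -0.10 (interval -0.26 to 0.06), and by -0.05 without the mouse low in slow fibre genes. Ndufa12l is in by name and is an assembly factor (Ndufaf2), with -0.05 (SE 0.06). Ndufa4l2 and Ndufv3 were not analysed here.

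Complex II, succinate dehydrogenase, also a citric acid cycle enzyme, had 4 genes. The flavoprotein Sdha differed by 0.07 (interval -0.09 to 0.24), the iron-sulphur protein Sdhb by -0.14 (interval -0.36 to 0.09), and the membrane anchors Sdhc and Sdhd by -0.04 (interval -0.23 to 0.16) and 0.09 (interval -0.10 to 0.28). No gene of complex II passed an unadjusted p of 0.05. In the mouse low in slow fibre genes Sdhb was at -1.14, where the other 7 of its group lay between -0.82 and -0.34, and without it Sdhb differed by -0.06 and Sdhc by 0.04. Without the dim array, Sdhd differed by 0.01 and Sdha by 0.04. In complex III, which had 7 genes, the core proteins Uqcrc1 and Uqcrc2 differed by 0.08 (interval -0.04 to 0.19) and 0.04 (interval -0.10 to 0.18). Uqcrfs1, the Rieske iron-sulphur protein, was at -0.05 (interval -0.20 to 0.09) and Uqcrh, the hinge protein, at -0.05 (interval -0.20 to 0.09), or -0.00 without the dim array. No gene of complex III passed an unadjusted p of 0.05 either, against 3.5% of all probes higher and 3.96% lower.

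Complex IV held 3 of the 4 genes that were higher in cHF+F+ROSI at a nominal p of at most 0.05. That is 18.8% of the 16 genes counted with it by name, against 3.5% of all probes. Cox8b, the muscle form of subunit VIII, had the largest difference of all members. Its log2 ratio ranged from 0.40 to 0.80 in cHF+F+ROSI (median 0.53) and from 0.17 to 0.54 in cHF+ROSI (median 0.32). All 8 cHF+F+ROSI mice were above the cHF+ROSI mean, and the ranges overlapped. The difference was 0.24 (SE 0.07, 95% interval 0.10 to 0.38), a fold change of 1.18, with an adjusted p of 0.319 in limma (0.00218 unadjusted) and an exact two-sided permutation p of 0.0042. Within slides 1 to 4 it was 0.37, 0.47, 0.12 and 0.01. The probe lies on chromosome 7 (140750273 to 140750332, mm8). The Cy3 signal of Cox8b, from the same pool on every array, was lower by 0.12 on the cHF+F+ROSI arrays (SE 0.05, unadjusted limma p 0.0281, adjusted 0.92), and in the Cy5 channel alone the difference was 0.09 (SE 0.07, unadjusted p 0.254). In Cy3, 3.58% of all probes had a nominal p of at most 0.05, and so had 4 member genes, with Ndufb11 at -0.20 and Cox6b1 at 0.08 beside Cox8b and Atp5j. The Cy3 difference was -0.14 for Cox6a2 (SE 0.08, unadjusted limma p 0.0954) and -0.15 for Cox7b (SE 0.09, unadjusted limma p 0.119). For Ndufs4 it was 0.01 (SE 0.03).

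Cox6a2, the muscle form of subunit VIa, was also higher at a nominal p of at most 0.05. Its log2 ratio ranged from 0.85 to 1.31 in cHF+F+ROSI (median 1.12) and from 0.41 to 1.09 in cHF+ROSI (median 0.94). The dim array had the lowest value, and the groups overlapped. The difference was 0.24 (SE 0.10), with an adjusted p of 0.599 in limma and an exact permutation p of 0.0353. Within slides 1 to 4 it was 0.44, 0.25, 0.02 and 0.26. Its spot was saturated on 5 of 16 arrays, 4 of them cHF+F+ROSI. With saturated spots left out, the difference was 0.15 (unadjusted p 0.248), and without the dim array it was 0.18. It turned to -0.14 when the arrays were scaled to equal spread. Of the 16 alternatives other than leaving out 1 array, Cox6a2 kept its sign and a nominal p of at most 0.05 in 10. The probe lies on chromosome 7 (127996794 to 127996853, mm8). Cox7b, a small subunit encoded on the X chromosome, was the third, with values from -0.07 to 0.17 in cHF+F+ROSI (median 0.08) and -0.11 to 0.09 in cHF+ROSI (median -0.04). The groups overlapped, with 7 of 8 cHF+F+ROSI mice above the cHF+ROSI mean. Its difference was 0.10 (SE 0.04), with an adjusted p of 0.63 in limma and an exact permutation p of 0.0186. Within slides 1 to 4 it was 0.16, 0.20, 0.03 and 0.02. In the Cy5 channel alone it was -0.06, and Cox7b kept its sign and a nominal p of at most 0.05 in 11 of those 16 alternatives. With 1 array left out, the nominal limma p of Cox7b rose above 0.05 in 6 of 16 cases, with a highest p of 0.0685. These were without cHF+ROSI replicate 2, 4 or 8 or cHF+F+ROSI replicate 1, 3 or 4. For Cox6a2 it rose above 0.05 in 2 cases (without cHF+ROSI replicate 8 or cHF+F+ROSI replicate 3). Cox8b and Ndufs4 stayed below 0.05 in all 16. Under the 16 other alternatives, the nominal p of Cox8b rose above 0.05 in 3. Its difference was then 0.09 in the Cy5 channel alone, 0.10 after scale normalization and 0.21 with median centring.

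The widely expressed partners of these genes did not pass a nominal p of 0.05. Cox8a differed by 0.06 (interval -0.11 to 0.23) and Cox6a1 by -0.03 (interval -0.29 to 0.22). Cox7a1, the third muscle form, was at 0.01 (interval -0.17 to 0.19), and its partner Cox7a2 at -0.03 (interval -0.19 to 0.14). The dim array had the highest cHF+ROSI value of Cox8a, Cox6a1 and Cox7a2, and without it they differed by 0.12, 0.03 and 0.03. Taken within each mouse, the log2 ratio of the muscle form minus that of its partner differed between the groups by 0.18 for Cox8 (interval -0.06 to 0.42), by 0.27 for Cox6a (interval -0.16 to 0.70) and by 0.04 for Cox7a (interval -0.17 to 0.25). All 3 intervals hold zero and also 0.24, the largest member difference, so they do not decide whether the pairs differ. Without the dim array these differences were 0.10, 0.15 and -0.01, and the Cox6a pair rests on the Cox6a2 spot that was saturated on 5 arrays. These 3 pairs were set side by side after the values were seen, and no test was made of them. Cox7a2l, which is linked to the joining of complexes III and IV, differed by 0.06 (interval -0.10 to 0.21).

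Among the other subunits of complex IV, Cox4i1, the main form of subunit IV, differed by 0.14 (interval -0.01 to 0.30), Cox5a by 0.19 (interval -0.09 to 0.46) and Cox5b by 0.06 (interval -0.05 to 0.17). The Cox5a difference included the dim array, which lay at 0.21 while the other 7 cHF+ROSI mice lay between 1.07 and 1.34, and without it was 0.07. Cox4nb is in by name only: it is the neighbour of Cox4i1 on the chromosome, now Emc8, and differed by 0.01 (SE 0.05). Cox4i2, the alternative form of subunit IV, and Cox8c did not pass the filter, with mean Cy3 signals over background of 1.69 and 1.62. Over the 16 genes counted with complex IV, Cox4nb among them, 12 differences were above and 4 below zero. That is 75% above zero, against 49.2% of all probes, and the genes of a mouse share its array.

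**Figure D3:**
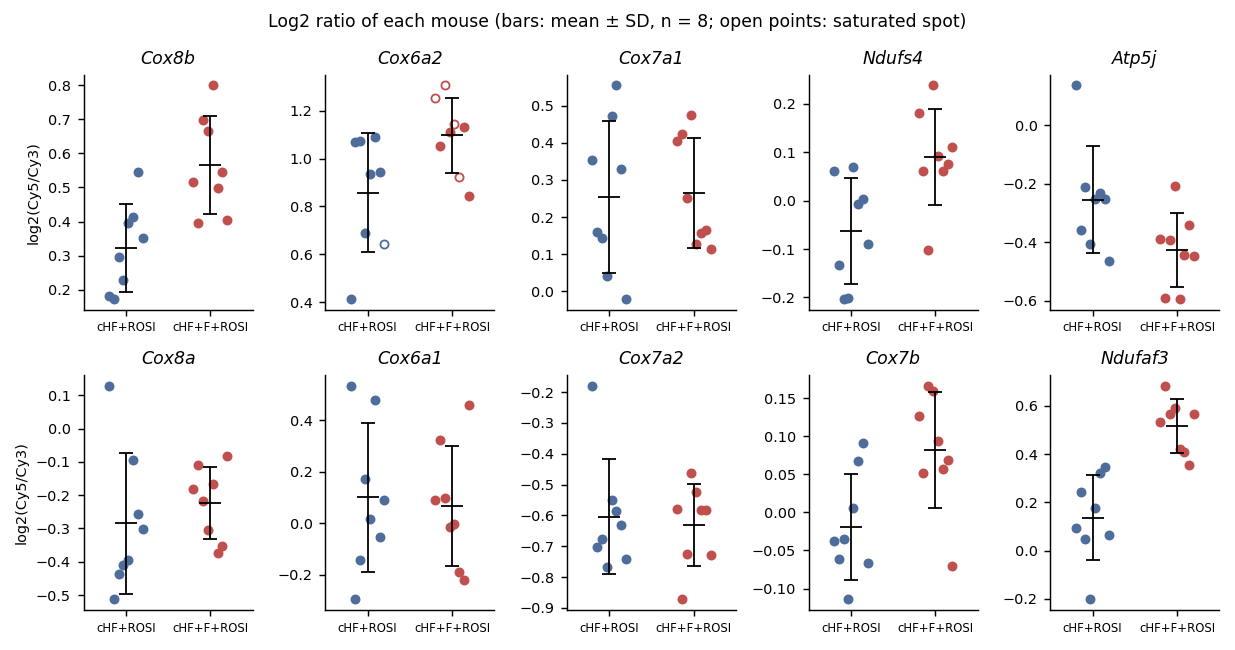
Log2(Cy5/Cy3) of each mouse (points; vertical axes differ between panels) for 9 member genes and the assembly factor Ndufaf3, with mean ± SD (n = 8 per group); open points are saturated spots. The groups overlap for each of the 9 members, and 4 of the 5 saturated Cox6a2 spots are cHF+F+ROSI; for Ndufaf3 they do not overlap.

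Complex V held the 1 member gene that was lower in cHF+F+ROSI at a nominal p of at most 0.05. Atp5j encodes coupling factor 6, a part of the stalk that holds the catalytic head. Its log2 ratio ranged from -0.59 to -0.21 in cHF+F+ROSI (median -0.42) and from -0.46 to 0.14 in cHF+ROSI (median -0.25). The highest value, 0.14, was that of the dim array, and the other 7 cHF+ROSI mice lay between -0.46 and -0.21, within the range of the cHF+F+ROSI group. The difference was -0.17 (SE 0.08), with an adjusted p of 0.636 in limma (0.0375 unadjusted) and an exact permutation p of 0.0387. Within slides 1 to 4 it was -0.38, -0.09, -0.15 and -0.06. The nominal p rose above 0.05 for 9 of the 16 arrays left out in turn. Over all 16, the difference ranged from -0.20 to -0.12. Without the dim array it was -0.12, with an unadjusted p of 0.0733, and without that array and the mouse low in slow fibre genes -0.09. The Cy3 signal of Atp5j was higher by 0.11 on the cHF+F+ROSI arrays (unadjusted limma p 0.0227, adjusted 0.92). The probe lies on chromosome 16 (84710523 to 84710582, mm8).

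The catalytic subunits of the head, Atp5a1 (alpha) and Atp5b (beta), differed by 0.08 (interval -0.07 to 0.22) and 0.07 (interval -0.10 to 0.24). The central stalk subunit Atp5c1 was at -0.10 (interval -0.24 to 0.03). Atp5g1, Atp5g2 and Atp5g3, which encode the same mature subunit c, differed by 0.11 (interval -0.04 to 0.27), 0.08 (interval -0.04 to 0.21) and 0.16 (interval -0.20 to 0.53). Atp5g3 varied most between mice, from 0.33 to 1.27 in cHF+F+ROSI and from -0.05 to 1.04 in cHF+ROSI. Atp5s, now Dmac2l, is in by name and is a coupling factor rather than a subunit of the complex, with a difference of -0.01 (SE 0.07).

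Each gene was represented by its brightest probe. Of the 20 member genes with several kept probes, 7 had probes that differed in sign, with a range of at most 0.17 between probes of a gene. The brightest Atp5b probe, saturated on 2 arrays, gave 0.07, and the others 0.19 and 0.20, of which the last had an unadjusted p of 0.0203. For Atp5f1, a stalk subunit now named Atp5pb, the probes gave 0.07, 0.17 (unadjusted p 0.0183) and -0.00. None of these probes passed the adjusted threshold. A second Ndufs4 probe did not pass the filter, with mean signals over background of 1.69 in Cy5 and 1.45 in Cy3. Without the filter it differed by -0.06 (unadjusted limma p 0.314).

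The other genes of the pathway were taken from lists of assembly factors, electron carriers, transporters and regulators. Of 37 listed symbols of assembly factors, 33 were found with a kept probe. Among the other 4, Ndufaf2 is on the array as Ndufa12l, described with complex I, and Uqcc is an older symbol of Uqcc1, which was measured. Of the 33, 2 were higher and 0 lower in cHF+F+ROSI at a nominal p of at most 0.05, against 3.5% and 3.96% of all probes, with a median difference of 0.05. Ndufaf3, an assembly factor of complex I that the array lists as 4733401H18Rik, had values from 0.35 to 0.68 in cHF+F+ROSI (median 0.55) and from -0.20 to 0.35 in cHF+ROSI (median 0.13). The groups did not overlap, although the lowest cHF+F+ROSI and the highest cHF+ROSI value were close. Groups that do not overlap were found for 15 of 19310 probes (0.0777%), and for 0 of the 79 member genes. The difference of Ndufaf3 was 0.38 (SE 0.07, 95% interval 0.23 to 0.53), with an adjusted p of 0.095 in limma and an exact two-sided permutation p of 0.0001554, the smallest that 8 against 8 mice can give. Over all other settings the adjusted p lay between 0.054 and 0.924. Cox15, which makes the heme A of complex IV, ranged from 0.27 to 0.57 in cHF+F+ROSI (median 0.45) and from 0.08 to 0.32 in cHF+ROSI (median 0.26), a difference of 0.20 (SE 0.05) with an adjusted p of 0.28 in limma. After scale normalization it was 0.09, with a nominal p of 0.217, and over all settings its adjusted p lay between 0.101 and 0.998.

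Among 12 transporters, uncoupling proteins and kinases (of 13 listed), 2 were higher and 1 was lower at a nominal p of at most 0.05, against 3.5% and 3.96% of all probes, and none passed adjustment. Vdac3, a channel of the outer membrane, was higher by 0.16 (SE 0.06). In 4 of 16 alternatives its nominal p rose above 0.05, with differences down to 0.07 in the Cy5 channel alone. Vdac1, the main such channel, was lower by 0.38 (SE 0.14), with values from -1.34 to -0.17 in cHF+F+ROSI and -0.35 to 0.21 in cHF+ROSI. The lowest was the mouse low in slow fibre genes, without which the difference was -0.26. For electron carriers and quinone synthesis, 0 of 14 measured genes (of 18 listed) passed an unadjusted p of 0.05 in limma in either direction. Of all probes, 3.5% were higher and 3.96% lower at that p.

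All 19 regulators were measured, with a median difference of -0.00. At a nominal p of at most 0.05, 1 was higher and 1 lower, against 3.5% and 3.96% of all probes. Polrmt, the mitochondrial RNA polymerase, was higher by 0.13 (SE 0.06) at an unadjusted p of 0.0411 and Sirt1, a deacetylase, lower by 0.28 (SE 0.13) at 0.0476, with adjusted p of 0.654 and 0.666 in limma. With 1 array left out, these nominal p rose above 0.05 in 10 and 11 of 16 cases. The differences lay between 0.10 and 0.16 for Polrmt and between -0.34 and -0.19 for Sirt1. Further regulators are named for their known role, with their values already seen. Ppargc1a (PGC-1α), a coactivator of respiratory genes, differed by 0.15 (SE 0.16) and Ppargc1b by -0.28 (SE 0.13, unadjusted p 0.0524). The factors whose letters were searched gave -0.07 (SE 0.05) for Nrf1, -0.00 (SE 0.08) for Gabpa, 0.02 (SE 0.06) for Esrra and -0.11 (SE 0.07) for Yy1. Of the subunits encoded in the mitochondrial genome 3 were measured, and none passed an unadjusted p of 0.05: CYTB of complex III differed by 0.14 (SE 0.12), COX2 of complex IV by -0.35 (SE 0.18) and ND4L of complex I by 0.03 (SE 0.13).

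Markers of fibre types and of other cells are given beside these results. The 11 slow fibre genes had a median difference of -0.39. Their mean log2 ratio ranged from -2.09 to 0.21 in cHF+F+ROSI and from -1.33 to 0.60 in cHF+ROSI. Of these genes, 0 passed an unadjusted p of 0.05 in limma, against 3.5% of all probes higher and 3.96% lower. The 10 fast fibre genes had a median of -0.06. Of the 8 adipocyte markers 7 were measured, all but Ucp1, with a median of 0.32 and mean log2 ratios from -1.41 to 0.96 in cHF+F+ROSI and from -1.01 to 0.33 in cHF+ROSI. The 4 red blood cell genes had a median of 0.17 and the 8 macrophage genes of -0.03. Of 4 heart markers, Nppa, Nppb and Tnni3 did not pass the filter, and Tnnt2 differed by -0.22 (SE 0.08, unadjusted p 0.0157). The part of these markers in the values of the members was not tested.

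**Figure D4:**
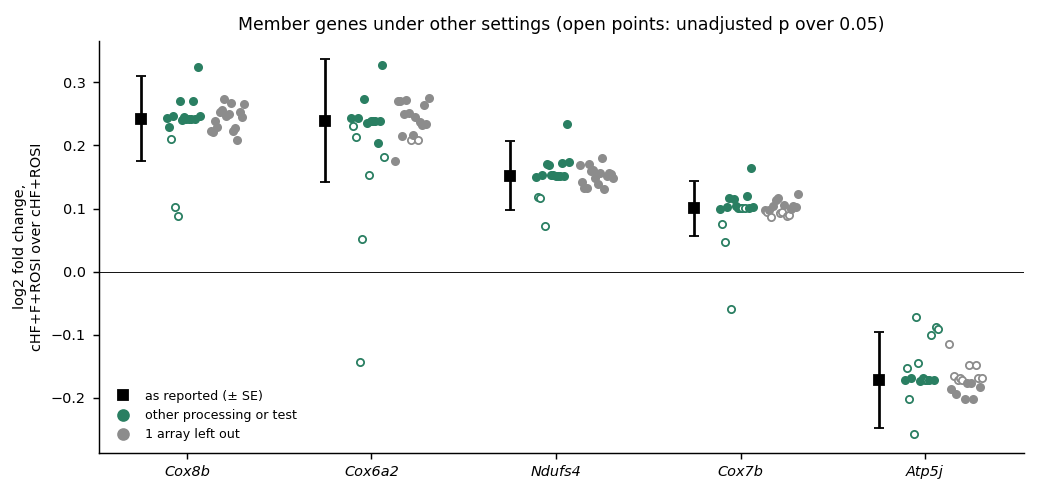
Log2 fold change (cHF+F+ROSI over cHF+ROSI) of the 5 member genes with a nominal p of at most 0.05: as reported (square, ± SE), with other processing or tests (green) and with 1 array left out (grey); open points have an unadjusted p over 0.05. Cox8b and Ndufs4 stay above and Atp5j below zero at every point, Cox6a2 and Cox7b cross zero at 1 point each, and many Atp5j points are open.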

How the data were processed

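RNA of 8 mice per diet was measured on two-color arrays against a common Cy3 pool, with no dye swap. The authors deposited spot intensities from Feature Extraction (10.5.1.1 per the file headers, 10.5.5.1 per the labels). They also deposited normalized log2 values, used as an alternative. Member genes, lists and tests were chosen with earlier results of these data known.

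Median signals were background-corrected by normexp (offset 50), control and outlier spots were left out, probes were required to reach 2 times the background on average in Cy5 and in Cy3, and each array's ratios were loess-normalized. The brightest probe stood for a gene. Groups were compared with limma 3.58.1 in R 4.3.3 and, for single genes, with an exact permutation test. Named were genes fixed by role, the 3 with the smallest p per complex (complex II: 1) and all with a nominal p of at most 0.05. The chain was tested on the real arrays, with the diets mixed evenly between groups and the Cy5 signal of randomly chosen probes raised. The raise was larger than any member difference, so the test does not show whether differences of that size would be found. The values of 2 single genes are not reported here. RefSeq gave current names for 77 of 79 member genes. Labels give each sample as a separate mouse. Alternatives covered background correction, normalization, channel, filters, saturation, probe choice, blocks, array weights, the methods' t-test and each array left out.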

Additional observations from a re-analysis of the deposited data

Results flagged for a closer look

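In 96 groups of 8 mice (42 named genes, and the means of each complex and of all members, in both diets), 8 had a single mouse far from the others, where chance gives about 1 in 20. The dim array, cHF+ROSI replicate 1, was that mouse for 5 genes. Its log2 ratio was 0.33 for Ndufa1 (the others -0.59 to -0.40), -0.36 for Sdhd (0.16 to 0.49), 0.21 for Cox5a (1.07 to 1.34), -0.18 for Cox7a2 (-0.77 to -0.55) and 0.14 for Atp5j (-0.46 to -0.21). The mouse low in slow fibre genes, cHF+F+ROSI replicate 2, stood apart for 3 genes, with -0.36 for Ndufa4 (the others -0.06 to 0.19), -0.999 for Sdhc (-0.58 to -0.25) and -1.34 for Vdac1 (-0.68 to -0.17).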

How the results depend on the processing

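The count of 0 member genes past the adjusted threshold was the same in all 32 alternatives (limma, or the methods' t-test in 1), and the lowest adjusted p of a named member was 0.114 (Cox8b with array weights). The counts at a nominal p of at most 0.05 were less stable. The 4 higher genes became 1 with Feature Extraction processed signals (where 5.75% of all probes were higher), 0 with median centring in place of loess (1.68%), 1 after scale normalization (2.13%), 8 with array quality weights (4.26%) and 9 in the authors' table (4.39%). The 1 lower gene became 0 under each of those 5 settings, in the Cy5 channel alone, without the background filter, with the slide as a block and without both arrays that stood apart (chosen after seeing the data). Of all probes, 2.46% to 4.85% were lower under these settings. With 1 array left out, the higher genes ranged from 2 (without cHF+ROSI replicate 8 or cHF+F+ROSI replicate 3) to 6. The lower genes ranged from 0 (without cHF+ROSI replicate 1, 3, 5, 6 or 7, or cHF+F+ROSI replicate 2, 5, 6 or 8) to 2 (without cHF+ROSI replicate 4). Of all probes, 2.82% to 5.02% were higher and 3.26% to 5.19% lower with 1 array left out. After scale normalization the median of complex II was 0.19, of complex III -0.12 and of complex V -0.089. Cox6a2 then reversed to -0.14 and Polrmt to -0.011, and in the Cy5 channel alone Cox7b reversed to -0.059. In all other alternatives the medians moved by less than 1 SD of the mice. Within that limit, the median of complex IV still ranged from -0.01 to 0.13 over 15 alternative settings. The cause of these shifts was not tested.

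Correlations of deviations between same-numbered mice ran from -0.34 to 0.73 and were not all above 0.1, so the numbers were not used as pairs. Whether single numbers link mice cannot be told from these values. With the replicate block, 0 member genes passed the adjusted threshold, and the median of the members was 0.01. At a nominal p of at most 0.05, 3 were higher and 1 lower, against 3.46% and 3.9% of all probes. The number of arrays limits how small a difference can be seen.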
